A study of Mus musculus with 2 samples.

Results

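The genes described here are those of the mitogen-activated protein kinase (MAPK) cascade whose names mark them as feedback regulators, kinases, Ras regulators or immediate early genes. They were chosen by a rule on symbols, with earlier results of these data known. The rule took names beginning with Dusp, Spry, Spred, Etv, Egr, Fos, Jun, Ier, Map2k, Map3k, Mapk, Atf, Maff, Btg, Rasa, Rasgrp or Rasgef. This rule found 42 of the 4197 genes in the deposited table. The GFP positive group holds cells sorted for fluorescence, labelled wnt1CRE::Ai3, from the lateral wall of the cochlea of newborn mice (postnatal day 0), and the GFP negative group holds the unlabelled cells of the same tissue and age, labelled wnt1CRE::Ai4. Both thus carry Cre under the Wnt1 driver, which marks neural crest descendants, and a Cre-dependent reporter, which the protocol calls EYFP. All cells were dissociated with trypsin before sorting. The study set neonatal intermediate cells, the pigment cells of the stria vascularis, against the other cells of the lateral wall.

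In the ERK branch of this pathway a growth factor receptor loads Ras with GTP, and Raf, MEK and ERK kinases are then activated in turn. ERK switches on immediate early genes such as Fos and Egr1 within minutes. It also induces its own brakes, among them some dual specificity phosphatases of the Dusp family and Sprouty and Spred proteins. Parallel branches run through the stress-activated kinases JNK and p38. In melanocytes, the receptors Kit and Met feed the ERK branch, and ERK phosphorylates the lineage factor Mitf.

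The value columns of the table are normalised reads, 1 for the GFP negative library and 1 that averages GFP positive cells. The average could be resolved into whole reads of 2 libraries, here called A and B, which the labels do not name. The labels list 1 sample per group, so there was no test across samples, and intervals given with ratios are exact binomial 95% intervals that cover counting error only. Summed over the table, library A had 17120511 reads, library B 16584559 and the GFP negative library 12114107. The authors' deposited table holds only genes that passed its limits on adjusted p (largest value 0.00986) and on the log2 ratio (beyond 1 in either direction). Unlisted genes therefore have no value here. Genes of the pigment lineage and the stria were higher in the sorted cells, with Dct at 1229761 against 1182, Kcnj10 at 20292 against 62.6, Mitf at 45308 against 657 and Sox10 at 38046 against 743 in GFP positive and GFP negative cells. Of the marker lists, 10 of 10 pigment and intermediate cell genes and 8 of 8 Schwann cell and glial genes were higher in GFP positive cells. Of all listed genes 43.6% were higher. The marker lists were chosen with earlier results of these data known, so their counts are no independent check of the sorted cells. The glial list holds Sox10 and Erbb3, which pigment cells also express, so a glial and a pigment cell source of its transcripts cannot be told apart. The GFP negative side held fibrocyte, leukocyte, endothelial, pericyte and red blood cell transcripts, while 0 of 6 marginal cell genes were listed. In such bulk samples, fewer cells of a type and less RNA per cell cannot be told apart.

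Of the 42 MAPK genes, GFP positive cells had higher values for 24 and lower values for 18 (57.1% higher, where 43.6% of all listed genes were higher and 56.4% lower). All 7 listed MAP2K and MAP3K kinases and 8 of 11 Dusp phosphatases were higher, and all 8 listed Egr, Fos, Ier and Btg genes were lower. The size rule asked for a log2 ratio of at least 2 (4-fold) after adding 1 to each value, and for 5 or more normalised reads in the higher group. By it 9 members were higher, which is 21.4% against 18.1% of all listed genes. Another 10 were lower, which is 23.8% against 36.9% of all listed genes. The median log2 ratio was 1.13 for the members and -1.34 for all listed genes. The table holds no gene near 0, so the sign of a median follows which direction holds more genes. The contrast of these medians is thus not a measure apart from the shares of 57.1% and 43.6%. A group median near 0 before any rescaling lies between a higher and a lower gene. Centring on the median listed gene, a shift of 1.31 on the log2 scale, changed the 4-fold split to 24 higher and 3 lower. These were 57.1% and 7.14%, against 43.6% and 11.1% of all listed genes. This shift put every gene listed as higher past 4-fold, because the authors' limit had left out smaller ratios. The 24, 57.1% and 43.6% therefore repeat the shares listed as higher and are no second result. Scaling to the listed total moved the split the other way, to 6 higher and 13 lower, against 14.2% and 43.7% of all listed genes. For 42 of 42 members both GFP positive libraries fell to one side of the GFP negative value, as they did for 100% of listed genes. The median size of their log2 difference was 0.14 for the members and 0.13 for all listed genes.

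**Figure D1:**
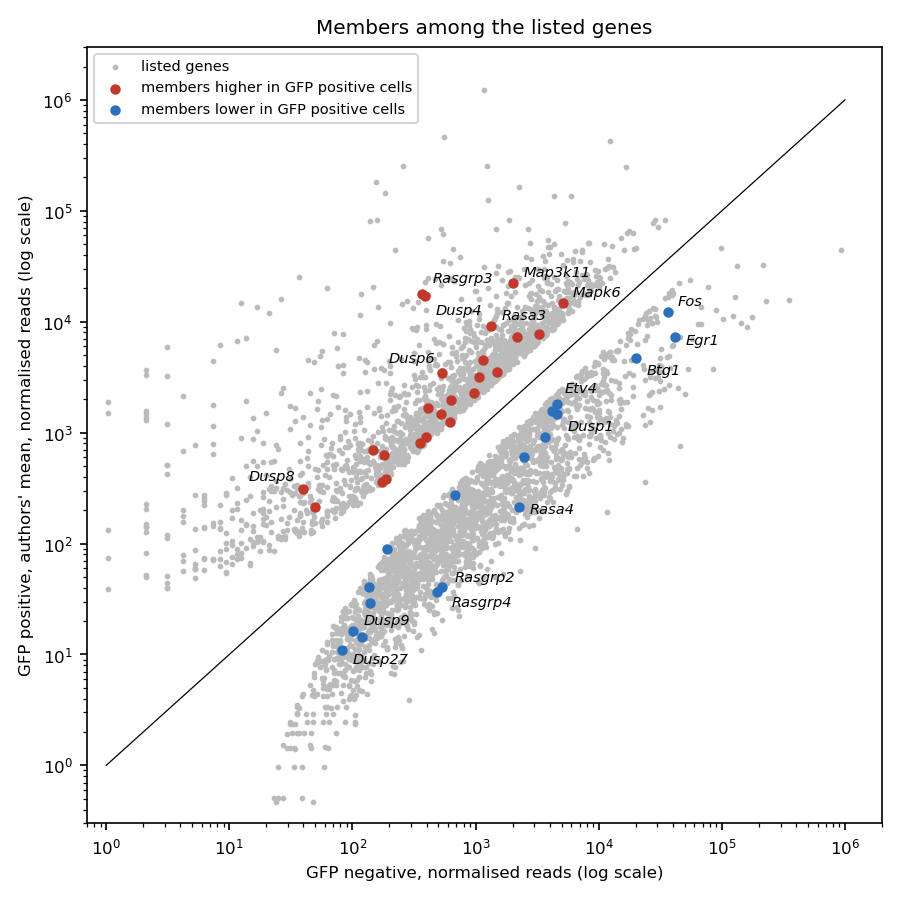
Each point is a listed gene, placed by its normalised reads in the GFP negative library (horizontal, log scale) and by the authors' mean of GFP positive cells (vertical, log scale); red and blue points are the 42 members and the line marks equal values. The empty band along the line is the authors' limit on the log2 ratio; Rasgrp3 and Dusp4 lie far above it, and Egr1 and Fos hold the most reads of the members below it.

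The dual specificity phosphatases, only some of which are established to switch MAP kinases off, had 11 listed genes of 24 names. In GFP positive cells 8 were higher and 3 lower (72.7% higher, against 43.6% of all listed genes), with a median log2 ratio of 1.23. The 8 higher genes include the atypical members Dusp18, Dusp19 and Dusp23, and the 3 lower ones include the atypical Dusp27. Dusp4, a nuclear phosphatase that ERK induces, stood at 16330 and 17632 in libraries A and B, a mean of 16981, against 391 in the GFP negative library. It was 43.5-fold higher (39.2 to 48.2). Both libraries were far above the GFP negative value, and the difference between them was small beside that. Dusp6, the cytoplasmic phosphatase specific for ERK, stood at 3665 and 3193, a mean of 3429, against 539, or 6.36-fold higher (5.84 to 6.99). Dusp4 and Dusp6 are both standard readouts of ERK feedback.

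Other phosphatases that were 4-fold or more higher had few reads. Dusp8, which acts on JNK and p38, stood at a mean of 309 against 39.7, a ratio of 7.78 (5.59 to 11.1) that rested on 38 GFP negative reads. Dusp2, a nuclear phosphatase best known from immune cells, stood at 214 against 50.1, a ratio of 4.27 (3.17 to 5.89). Dusp16, which also acts on JNK and p38, had a log2 ratio of 1.23. The atypical members Dusp18, Dusp19 and Dusp23 had log2 ratios of 1.58, 1.21 and 1.07. Dusp18 stood at 3179 against 1061, Dusp19 at 916 against 395 and Dusp23 at 362 against 172.

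The 3 lower phosphatases were Dusp1, Dusp9 and Dusp27. Dusp1, itself an immediate early gene, stood at 1546 and 1405 in libraries A and B, a mean of 1476, against 4599 in the GFP negative library, or 3.12-fold lower (2.97 to 3.26). Per kilobase of exon it was the highest listed Dusp gene of the GFP negative library, with 1389 normalised reads. Dusp9, a cytoplasmic ERK phosphatase, stood at 16.3 against 101, on 10 and 23 reads in libraries A and B. These libraries differed by 1.23 on the log2 scale, the largest difference between them for any member. Dusp27, an atypical member known from skeletal muscle, stood at 11.1 against 82.5, or 7.46-fold lower (4.61 to 12.4).

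Promoters of 31 of the 42 members were matched by symbol in the RefSeq table for GRCm38.p6, each from 250 bases before to 50 bases after a start site. Egr1, Dusp4, Etv4, Ier2, Dusp9, Dusp19, Map3k2, Map3k15, Mapk4, Mapksp1 and Rasgrp4 had no matched window and were not searched. The matched promoters alone bear on the counts below. The matched windows were searched on both strands for the cAMP response element TGACGTCA and the AP-1 site TGANTCA. The M-box core CATGTG and the CArG box of serum response factor were searched for as well. The cAMP response element was present in 4 of 31 member genes (12.9%) and in 2.03% of all 27025 genes of the table. Its carriers went both ways: Btg2, Dusp1 and Mapk10 were lower in GFP positive cells and Dusp8 was higher. The windows of Dusp1, Dusp8 and Btg2 are shown 5′ to 3′ along the gene, because these 3 genes of fast induction or feedback carry the same element but differ in direction. Capitals mark the element. They lie at chr17:26508423-26508722 (minus strand), chr7:142095235-142095534 (minus strand) and chr1:134079106-134079405 (minus strand).
Dusp1: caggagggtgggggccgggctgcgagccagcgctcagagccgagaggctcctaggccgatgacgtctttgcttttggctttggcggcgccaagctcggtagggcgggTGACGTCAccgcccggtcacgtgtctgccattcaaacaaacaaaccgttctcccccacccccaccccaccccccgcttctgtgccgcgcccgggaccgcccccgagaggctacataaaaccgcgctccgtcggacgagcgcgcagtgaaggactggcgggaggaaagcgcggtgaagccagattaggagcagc
Dusp8: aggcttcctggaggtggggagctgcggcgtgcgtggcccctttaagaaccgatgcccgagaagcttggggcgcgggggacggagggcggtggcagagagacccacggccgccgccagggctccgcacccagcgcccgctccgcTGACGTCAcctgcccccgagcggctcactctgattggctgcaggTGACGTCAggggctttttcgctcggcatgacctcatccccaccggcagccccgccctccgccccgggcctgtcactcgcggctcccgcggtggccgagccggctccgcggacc
Btg2: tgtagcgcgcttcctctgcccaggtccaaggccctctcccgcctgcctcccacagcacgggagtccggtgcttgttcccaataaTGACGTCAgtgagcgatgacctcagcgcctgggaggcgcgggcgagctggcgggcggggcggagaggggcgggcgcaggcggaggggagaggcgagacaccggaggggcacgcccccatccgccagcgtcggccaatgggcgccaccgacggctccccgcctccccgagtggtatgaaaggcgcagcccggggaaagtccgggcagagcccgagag
Dusp8 carried it at 2 places, starting 107 and 63 bases before the start site, Dusp1 at 143 bases and Btg2 at 166 bases. The M-box core was found in 6 of 31 genes (19.4%, against 15.9% of all genes). The CArG box was found in 1 of 31 (3.23%, against 1.81%) and the AP-1 site in 0 of 31 (against 8.97%). A match is a description of the letters and not a site of binding, and the window is short.

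Of the Egr, Fos and Jun genes, Egr1 and Fos were listed, and both were lower in GFP positive cells. Egr1, a zinc finger factor switched on by ERK through serum response factor, stood at 6805 and 7852 in libraries A and B, a mean of 7329, against 41905 in the GFP negative library. It was 5.72-fold lower (5.63 to 5.84). Fos, the partner of Jun in the AP-1 factor, stood at 12570 and 11690, a mean of 12130, against 36272, or 2.99-fold lower (2.94 to 3.04). For both genes the GFP positive libraries were closer to each other than to the GFP negative value, and well below it. Library A alone gave a log2 ratio outside the counting interval for both. Of the related names, Egr2, Egr3, Egr4, Fosb, Fosl1, Fosl2, Jun, Junb and Jund were not listed, nor were any of the 11 names of the Atf and Maff group.

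The Ier and Btg genes, short-lived early response transcripts and antiproliferative regulators, were lower for 6 of 6 listed genes of 9 names, where 56.4% of all listed genes were lower. Their median log2 ratio was -1.57, near the -1.34 of all listed genes, and it was -0.26 after centring. After centring on the median listed gene, Ier5 and Btg3 turned to 0.0030 and 0.21. Btg1, which restrains proliferation, stood at 5016 and 4394, a mean of 4705, against 20267, or 4.31-fold lower (4.19 to 4.40). The reference holds the copies Btg1-ps1 and Btg1-ps2, so the split of Btg1 reads is uncertain. Btg2, the p53 target whose promoter is printed above, stood at 1050 and 775, a mean of 912, against 3643. It lay just short of 4-fold (3.99-fold lower, 3.75 to 4.20), with a log2 ratio of -1.79 from library A alone and -2.23 from library B alone. Ier2, a nuclear protein of the early response, stood at 1577 against 4186, a log2 ratio of -1.41. Ier5 stood at 274 against 680, its relative Ier5l at 40.3 against 137, and Btg3 at 89.1 against 192. Btg3 had the largest adjusted p of the members in the authors' deposited table, 0.00718. Btg3 shares 17.3% of its exon bases with Cxadr on the opposite strand, which was lower too, at 658 against 6403, and the use of strand in counting is not given.

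Fibrocyte and otic mesenchyme markers, 8 of 8 listed, summed to 118934 against 1933179 in GFP positive and GFP negative cells, so they moved in the same direction as the immediate early genes. Red blood cell markers, 5 of 6 listed, summed to 1498 against 90278, pericyte markers, 5 of 6 listed with Cspg4 higher, to 11476 against 35629, and endothelial markers, 2 of 7 listed, to 776 against 9252. None of the listed markers was at 0. Their part in the values of Egr1, Fos and the Ier and Btg genes was not tested. Neither was the part of the trypsin dissociation and sorting in the values of these genes and Dusp1.

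**Figure D2:**
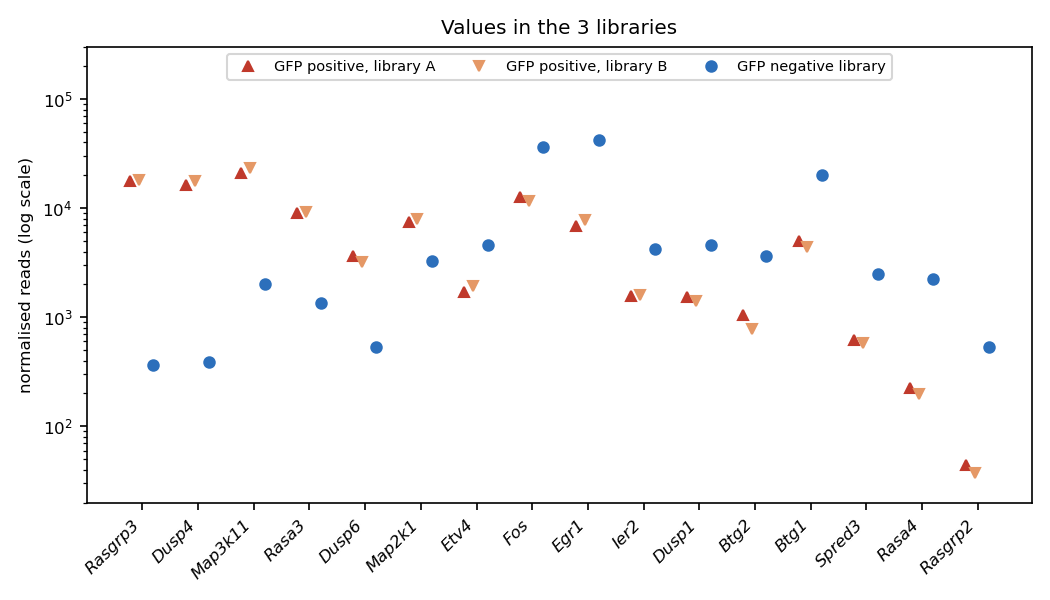
Normalised reads (log scale) of 16 members in GFP positive libraries A and B (triangles) and in the GFP negative library (circles). For every gene drawn the triangles lie together and on one side of the circle, above it for Rasgrp3, Dusp4, Map3k11, Rasa3, Dusp6 and Map2k1 and below it for the others.

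Of the Sprouty and Spred genes, which block the step from receptor to Raf, 1 of 7 names was listed. Spred3 stood at 624 and 576 in libraries A and B, a mean of 600, against 2486, or 4.14-fold lower (3.86 to 4.44). Spry1, Spry2, Spry3, Spry4, Spred1 and Spred2 had no value here. The Etv genes, which code for ETS factors that ERK induces or activates, gave opposite directions. Etv1 stood at 7152 and 7482, a mean of 7317, against 2172, or 3.37-fold higher (3.22 to 3.53). Etv4, of the same subfamily, stood at 1720 and 1924, a mean of 1822, against 4557, or 2.50-fold lower (2.40 to 2.62). The median of this pair, 0.21, became -0.15 with scaling to the listed total. Etv5, the third member of that subfamily, was not listed.

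Regulators of Ras held the members at both ends of the range. Rasgrp3, an exchange factor that diacylglycerol recruits to load Ras, known in human uveal melanoma as a link from G protein signals to Ras, showed the largest log2 ratio of all members, 5.61. It stood at 17608 and 18134 in libraries A and B, a mean of 17871, against 365, or 48.9-fold higher (44.0 to 54.5). Among all listed genes its log2 ratio ranked 82 and that of Dusp4 ranked 93. Because it shows the largest difference, the first of its 2 promoter windows in the table is printed, at chr17:75435655-75435954 (plus strand). Capitals mark the M-box core, here read on the opposite strand and ending 235 bases before the start site. The match lies among CA repeats, and 15.9% of all genes hold this core in their windows.
Rasgrp3: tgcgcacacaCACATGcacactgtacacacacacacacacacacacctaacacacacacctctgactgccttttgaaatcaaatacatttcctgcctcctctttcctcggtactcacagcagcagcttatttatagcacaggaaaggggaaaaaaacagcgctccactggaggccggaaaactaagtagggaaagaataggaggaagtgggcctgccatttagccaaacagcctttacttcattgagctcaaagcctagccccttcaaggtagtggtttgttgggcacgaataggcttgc
Rasa3 and Rasa2, which speed up GTP hydrolysis by Ras, were also higher. Rasa3 stood at 8986 and 9224, a mean of 9105, against 1345, or 6.77-fold higher (6.39 to 7.17), and Rasa2 had a log2 ratio of 1.22. Pigment and intermediate cell markers moved with these genes, with a sum of 2246767 against 3911, as did glial markers, with a sum of 151042 against 5564. Their part in the values of Rasgrp3, Dusp4 and Rasa3 was not tested.

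The lower Ras regulators were Rasa4, Rasgrp2 and Rasgrp4. Rasa4, a Ras brake that responds to calcium, stood at 226 and 198, a mean of 212, against 2250, or 10.6-fold lower (9.55 to 11.8). Rasgrp2, an exchange factor for Rap in platelets and leukocytes, stood at 44.7 and 37.3, a mean of 41.0, against 539, or 13.1-fold lower (10.4 to 16.7). Rasgrp4, known from mast cells, stood at 43.7 and 29.3, a mean of 36.5, against 491, or 13.4-fold lower (10.4 to 17.2). These were the 3 lowest log2 ratios of the members, from -3.71 to -3.40. Leukocyte markers, 10 of 10 listed, were lower as well, with a sum of 1799 against 9582, and their part in the values of Rasgrp2 and Rasgrp4 was not tested. Rasgrp4 also shares 15.4% of its exon bases with Fam98c on the opposite strand. The median of the 6 listed Ras regulators was -1.09, and it turned to 0.22 after centring.

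The kinases that activate MAP kinases were higher for all 7 listed genes of 26 names, where 43.6% of all listed genes were higher. Their median log2 ratio was 1.63, with a range from 1.02 to 3.46. Map3k11, a mixed lineage kinase upstream of JNK, stood at 21102 and 23541 in libraries A and B, a mean of 22321, against 2022, or 11.04-fold higher (10.5 to 11.5). Map2k1, the MEK kinase that phosphorylates ERK, stood at 7437 and 7914, a mean of 7676, against 3274, or 2.34-fold higher (2.25 to 2.43). Its relative Map2k2 was not listed.

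Map3k1, which acts on JNK and ERK, stood at 4507 against 1140, and its log2 ratio of 1.98 lay just short of 4-fold. Library A alone gave 2.03 and library B alone 1.93. The related stress kinases Map3k5, Map3k6 and Map3k15, which respond to oxidative or osmotic stress, had log2 ratios of 1.63, 1.02 and 2.23. Map3k15 stood at 700 against 148 and shares 13.9% of its exon bases with Pdha1 on the opposite strand, which was higher too, at 9817 against 4342. Map3k2, which acts upstream of Map2k5, had a log2 ratio of 1.20.

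Of the MAP kinases with their scaffolds and substrates, 7 of 24 names were listed, 5 higher and 2 lower. That is 71.4% higher, against 43.6% of all listed genes. The median log2 ratio was 1.48. Mapk6, an atypical ERK-like kinase, stood at 14412 and 15239, a mean of 14826, against 5096, or 2.91-fold higher (2.82 to 2.996). Its close relative Mapk4 was 3.46-fold higher (2.94 to 4.07), at 628 against 182. Mapkapk3, a kinase that p38 activates, stood at 1651 against 409, just above 4-fold (4.03-fold, 3.63 to 4.49). The scaffold Mapksp1, which RefSeq lists under Lamtor3 and which binds MEK on late endosomes, stood at 1469 against 526. Mapk12, a p38 kinase best known from muscle, had a log2 ratio of 1.02.

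Both lower members of this group are best known from neurons. Mapk10, the neuronal JNK, stood at 14.4 against 120, on 18 and 12 reads in libraries A and B, or 8.32-fold lower (5.49 to 12.8). Mapk8ip2, a JNK scaffold, stood at 28.9 against 139, or 4.80-fold lower (3.50 to 6.60). The p38 kinase Mapk14 and the JNK kinases Mapk8 and Mapk9 were not listed.

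**Figure D3:**
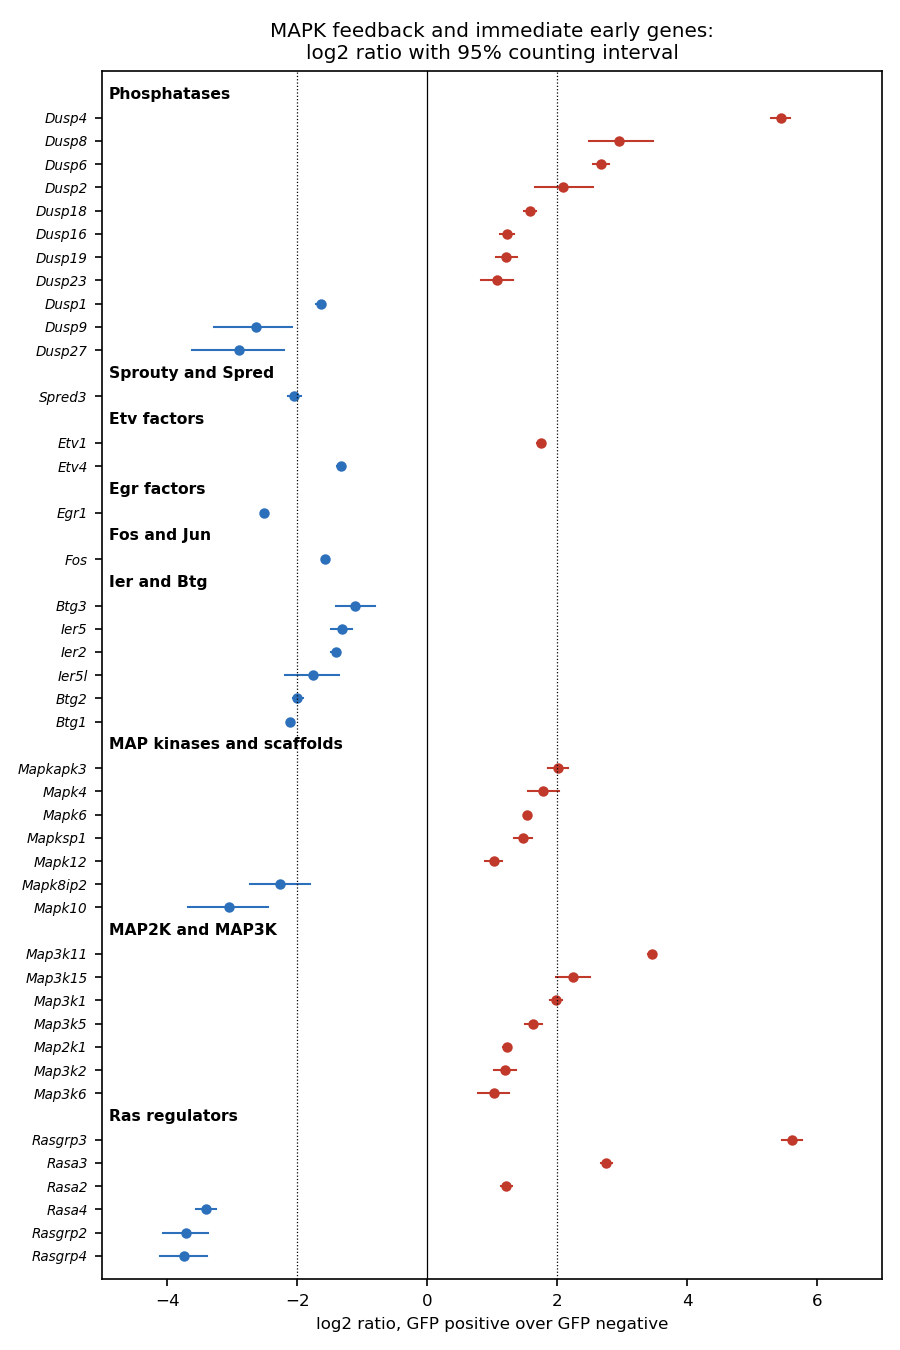
Log2 of the ratio of GFP positive over GFP negative values for the 42 members, by group, with 95% counting intervals as bars and dotted lines at 4-fold. All listed Ier, Btg, Egr1 and Fos points lie to the left of 0 and all MAP2K and MAP3K points to the right, while phosphatases and Ras regulators lie on both sides.

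Levels can be compared between genes per length, here as normalised reads per kilobase of exon in GENCODE M21, for the 40 members whose IDs it holds. In GFP positive cells the order was led by Dusp4 with 6198, Fos with 5157, Map3k11 with 5081 and Rasgrp3 with 3060. Libraries A and B gave 5345 and 4970 for Fos and 4804 and 5359 for Map3k11, so these neighbours overlapped. Map2k1 and Mapk6 followed with 2264 and 2221 per kilobase, again with overlapping libraries. In the GFP negative library the order was led by Fos with 15422, Egr1 with 9345, Btg1 with 3841 and Ier2 with 2750 per kilobase. Dusp4 stood there at 143 and Rasgrp3 at 62.6 per kilobase. The leading transcripts of the set were thus phosphatase, kinase and Ras regulator genes together with Fos on the GFP positive side, and immediate early genes on the GFP negative side.

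By number of genes, the receptors at the top of the pathway were mostly lower in GFP positive cells. Of 25 receptor tyrosine kinases 19 were listed, 3 higher and 16 lower (15.8% higher, against 43.6% of all listed genes). Their median log2 ratio was -2.47, against -1.34 for all listed genes. Their summed normalised reads were higher in GFP positive cells, at 165775 against 112378, with Met alone at 124710. Past 4-fold were 2 higher and 13 lower (10.5% and 68.4%, against 18.1% and 36.9% of all listed genes), and after centring 3 higher and 3 lower. The higher ones were Met, the hepatocyte growth factor receptor, at 124710 against 1263, Erbb3, the neuregulin receptor, at 17341 against 409, and Kit, the stem cell factor receptor, at 5292 against 1728. The lowest ratio was that of Fgfr4, a fibroblast growth factor receptor, at 564 against 12164. The lower receptors with the most reads were Fgfr1, at 3329 against 19027, and Pdgfra, at 1837 against 14851. Among 17 adaptors and exchange factors 4 were listed, 2 higher and 2 lower (50% higher, against 43.6% of all listed genes). Their median of -0.38 turned to 0.93 after centring. Shc4, an adaptor of activated receptors, stood at 24618 against 607, a log2 ratio of 5.34. Gab2, a docking protein, had 1.13, Shc2 -1.89 and Irs1, the insulin receptor substrate, -1.99.

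Few core components of the Ras and Raf step were listed. Of 13 names 3 were, namely Ksr1, a scaffold for Raf and MEK, with a log2 ratio of 1.40, Rap1a with 1.35 and Rras with -1.66. Of 14 other brakes on Ras and ERK, 3 were listed and all were lower, where 56.4% of all listed genes were lower. Past 4-fold were 2 of the 3, where 36.9% of all listed genes were lower by that rule. So few genes give no result for the list. Among the listed brakes were Il17rd, an inhibitor of fibroblast growth factor signals, at 1076 against 6038, and Lrig1, a brake on receptor tyrosine kinases, at 587 against 2776. Of 17 effector kinases and nuclear targets of ERK, 7 were listed, 4 higher and 3 lower, with a median of 1.55. That is 57.1% higher, against 43.6% of all listed genes. Mitf had a log2 ratio of 6.11, the effector kinases Rps6ka3 and Mknk2 1.71 and 1.55, the ETS factor Ets1 1.66, and Rps6ka6 -2.15.

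A list of 10 genes used as a score of MAPK activity in human tumours was split in these data. Of its 6 listed genes, 3 were higher and 3 lower (50% higher, against 43.6% of all listed genes). Their median log2 ratio was 0.67. Past 4-fold were 3 higher and 2 lower (50% and 33.3%, against 18.1% and 36.9% of all listed genes). So few genes give no result for the list. Dusp4, Dusp6 and Etv4 are also members of the set described above. Phlda1, an early target of ERK, stood at 39069 against 3561, a log2 ratio of 3.46. The lower ones beside Etv4 were the ephrin receptor genes Epha2, with -2.52, and Epha4, with -3.95.

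Other immediate early genes were lower for 15 of 19 listed genes of 31 names and higher for 4 (56.4% of all listed genes were lower), with a median log2 ratio of -1.60, close to the -1.34 of all listed genes. Those with the most reads were Zfp36l2, an RNA-binding regulator of mRNA decay, at 3248 against 16311, Cyr61, a matricellular protein, at 2207 against 12655, Klf4, a zinc finger factor, at 2504 against 8764, and Socs3, a brake on cytokine signals, at 1755 against 6598. The lowest ratio was that of Klf2, with -2.63. The 4 higher genes were Nr4a3, an orphan nuclear receptor, at 198 against 20.9, Gem, a small GTPase, with a log2 ratio of 1.72, Trib1, a pseudokinase, with 1.50, and Bhlhe40, a basic helix-loop-helix repressor, with 1.34. Of 10 heat shock genes only Hspb1 was listed, at 44.0 against 255. Of 12 bZIP partners of AP-1, 5 were listed, 3 higher and 2 lower (60% higher, against 43.6% of all listed genes). Nfe2l2, the factor of the oxidative stress response, stood at 9119 against 1443 and Maf at 2167 against 10145. Batf3 had the lowest log2 ratio of these, -2.48.

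**Figure D4:**
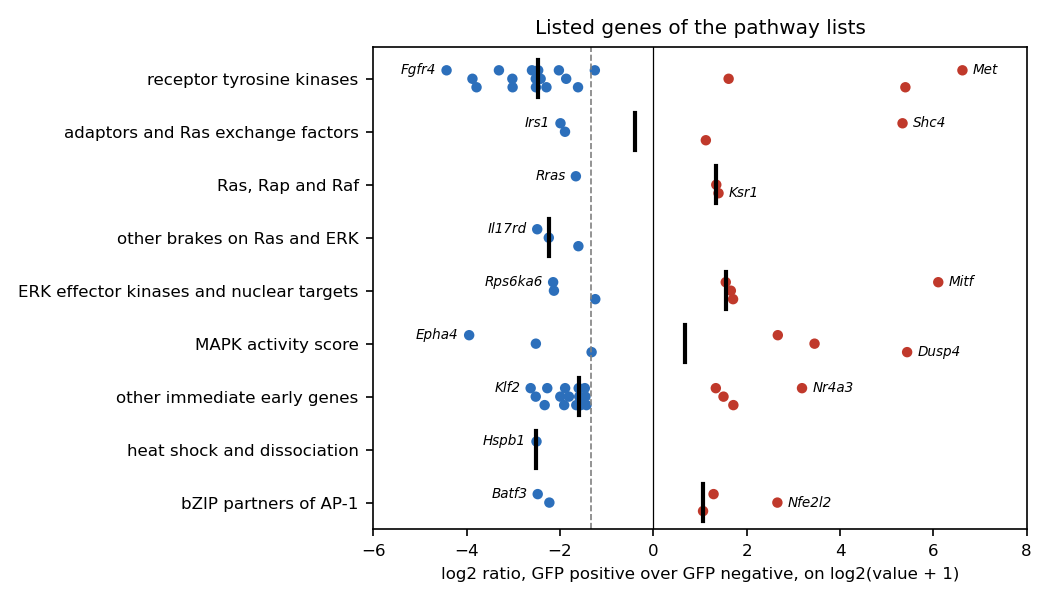
Log2 ratios of GFP positive over GFP negative values, on log2(value + 1), for the listed genes of each pathway list; black bars are list medians and the dashed line is the median of all listed genes. Most receptor tyrosine kinases and other immediate early genes lie left of 0, with Met and Nr4a3 farthest to the right in these lists.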

How the data were processed

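Per the labels' protocols, TruSeq libraries were prepared from the sorted cells, and reads were aligned with STAR to mm9, per the submitters' processing notes. For the counting step, its annotation and use of strand, the normalisation and the test, tools are not given in the sources used. The deposited signal columns are size-factor-normalised reads of the GFP negative library and an average the authors took over GFP positive cells. The deposited ratio, its log2, the p-value and the adjusted p-value are the authors'. The numbers in titles and headers differ for GFP positive cells and are not explained, and libraries A and B carry no label.

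Of the GFP negative values 100% were whole reads at 1 step (tolerance 1e-06 reads). Of the GFP positive means 100% had exactly 1 pair of whole numbers at 2 steps (relative tolerance 1e-13), against 0.0238% of slightly altered means. The size factors were 0.958 for the GFP negative library, 1.07 for A and 0.991 for B. In data simulated for 4197 genes with counting error only, 99.8% of pairs were recovered and 95.2% of intervals held the true ratio. The intervals are built for such error, so this checks the computation and not the spread between libraries.

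Log2 ratios are of GFP positive over GFP negative values with a pseudocount of 1, on the log2(value + 1) scale, which understates differences of genes with few reads. Fold values and intervals are plain ratios. With 1 labelled sample per group no test was made as a main result. As an alternative, edgeR 4.0.16 (quasi-likelihood, recovered reads) gave an adjusted p up to 0.05 to all 4197 genes of the table (1831 higher, 2366 lower), which had already passed the authors' limits on these libraries. On simulated data with 4197 genes and 200 raised 4-fold it called 92.5% of these and 0.0500% of the others. That simulation assumed a spread between libraries and left most genes unchanged, unlike the preselected genes of the table.

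Members and gene lists were chosen with earlier results of these data known. Every member may be named. Of each other list the most abundant and the extreme genes are named, and the further ones (Kit, Epha2, Gem, Trib1, Bhlhe40) were picked after their values were seen. Some genes of the lists are not reported here by name. Of the IDs 4064 were found in the GENCODE M21 names and 133 were not. Coordinates given are those of the RefSeq promoter table (GRCm38.p6), not of mm9. Python 3.11.15 and scipy 1.17.1 were used.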

Additional observations from a re-analysis of the deposited data

How the results depend on the processing

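No paired analysis was possible because the labels list 1 sample per group. Neither could a replicate be left out. Library A or B alone gave the same direction for 42 of 42 members, as for 100% of listed genes. Listing had required the mean of these libraries to pass the authors' limits, so this is no check of direction. Library A alone kept 34 members within their counting intervals, with Btg1, Btg2, Dusp9, Egr1, Etv4, Fos, Ier5 and Map3k11 outside. Library B alone kept 33, with 9 outside. The counting intervals thus do not cover the spread between the libraries. The split of 9 members higher and 10 lower past 4-fold became 24 and 3 after centring on the median listed gene. Centring puts every gene listed as higher past 4-fold. The split became 6 and 13 with scaling to the listed total. The edgeR test called 24 higher and 18 lower, but it called all 4197 preselected genes, with a spread taken from libraries A and B alone, so it is no check of the split. The median log2 ratio of the members, 1.13, became 0.76 with scaling to the listed total, which shifts every gene by -0.37, and 2.44 after centring, which shifts every gene by 1.31. Values turned sign for Btg3 (0.21) and Ier5 (0.0030) and for the medians of the Ras regulators (0.22) and of the adaptors and exchange factors (0.93) after centring, and for the median of the Etv genes (-0.15) with scaling to the listed total. These shifts follow from the construction of the scalings. A pseudocount of 0.5 kept 42 members within their counting intervals and one of 10 kept 40, with Dusp27 (-2.14) and Mapk10 (-2.41) outside theirs. The table holds no gene with a smaller log2 ratio, so these scalings rest on genes already chosen for a difference. Counting error limits Dusp8, Dusp2, Dusp9, Dusp27, Mapk10 and Mapk8ip2 most.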
